A study of Mus musculus with 11 samples.

Results

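The 32 genes described here make up glycolysis and the oxygen-sensing and hypoxia-linked genes that accompany it, measured in mouse CD4+ T cells. They were taken as a list of symbols and fell into 15 core enzymes (hexokinase to pyruvate kinase), 4 enzymes of pyruvate use (Ldha, Ldhb, Pdk1, Pdha1), 2 enzymes that set the level of an activator of phosphofructokinase (Pfkfb3, Pfkfb4), 4 oxygen-sensing genes (Hif1a, Vhl, Egln1, Egln3), 5 known hypoxia targets (Bnip3, Bnip3l, P4ha1, Higd1a, Ero1l), and Mif and Myc. All 32 of 32 were present among the 29224 genes of the bulk RNA table and among the 31053 genes of the single-cell matrix.

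The series holds 11 samples in 8 groups, all from draining lymph nodes of C57BL/6 mice, of which 3 were used and 8 were not analysed here. The bulk samples were 1 library of follicular regulatory T (Tfr) cells labelled Sostdc1 ko with the genotype Sostdc1 homo, and 1 labelled WT. Both were sorted as CXCR5+PD1+ cells with high GITR. The third was 1 single-cell library of CD44+CD4+ T cells, that is T cells with a surface marker of antigen experience, from heterozygous Sostdc1-EGFP reporter mice, in which EGFP marks expression of Sostdc1, a secreted antagonist of BMP and Wnt signalling. No source used here gives the immunization, age, sex or number of pooled animals. With 1 library per group there was no replicate check and no test of conditions. Folds are given with 95% intervals that cover counting error only.

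The bulk libraries held 27777625 counts in the KO-labelled library and 18076300 counts in the WT-labelled library. Sostdc1 had 458 counts (16.5 CPM, counts scaled to a common total) in the KO-labelled library and 4 counts (0.221 CPM) in the WT-labelled library, which goes against the labels. No source used here gives the part of the gene that the allele removes, so both libraries are called by their labels throughout. Xist, the RNA of the inactive X chromosome, had 34234 counts in the KO-labelled library and 39 in the WT-labelled library, whereas the Y-linked Ddx3y had 6 and 3557 counts in the KO-labelled and WT-labelled libraries. Label and sex-linked RNA therefore cannot be told apart in this pair. Among the 32 genes, Pgk1 and Pdha1 lie on the X chromosome. Both libraries held the RNA that defines Tfr cells: Foxp3 had 1164 CPM in the KO-labelled library and 1471 CPM in the WT-labelled library, Cxcr5 62.8 and 55.7 CPM, and Pdcd1 229 and 164 CPM. The single-cell matrix held 106127466 UMIs over 15002 barcodes, of which 8868 were kept as T cells.

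Glycolysis splits glucose into pyruvate. Lactate dehydrogenase A turns pyruvate into lactate and so lets the pathway run without respiration, whereas pyruvate dehydrogenase passes pyruvate to the mitochondria, and pyruvate dehydrogenase kinases such as Pdk1 switch that enzyme off. HIF-1α, the product of Hif1a, is hydroxylated by the oxygen-using enzymes Egln1 and Egln3 and then tagged for breakdown by Vhl. When it is stable, it binds promoters at the core letters ACGTG or GCGTG and raises transcription of most glycolytic genes. Activated T cells are known to raise glycolysis as they grow and divide, resting T cells to rely mainly on respiration, and Myc to drive glycolytic genes early after activation.

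Promoter sequence is shown for 6 of the genes, chosen after their values were seen, because they mark the extremes of the single-cell comparisons. Tpi1, Hif1a and Egln3 had large folds against resting cells among genes past the level filter used below, Pgk1 and Ldha are classical HIF targets, and Pdk1 went the other way. Each line is the 250 bases before a RefSeq start site, 5′ to 3′ on the strand of the gene, in GRCm38.p6. For Ldha and Pdk1, which have a further start site, only 1 window is shown. Capitals mark ACGTG or GCGTG on either strand (CACGT and CACGC on the other strand), including overlaps. The palindrome CACGTG, the E-box that Myc also binds, holds ACGTG on both strands.
Pgk1 (chrX:106186850-106187099, plus strand): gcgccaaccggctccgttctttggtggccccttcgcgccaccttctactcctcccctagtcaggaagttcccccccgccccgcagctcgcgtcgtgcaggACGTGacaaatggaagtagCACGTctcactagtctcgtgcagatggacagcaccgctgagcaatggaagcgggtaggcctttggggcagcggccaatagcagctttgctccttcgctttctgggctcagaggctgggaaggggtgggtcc
Ldha (chr7:46845554-46845803, plus strand): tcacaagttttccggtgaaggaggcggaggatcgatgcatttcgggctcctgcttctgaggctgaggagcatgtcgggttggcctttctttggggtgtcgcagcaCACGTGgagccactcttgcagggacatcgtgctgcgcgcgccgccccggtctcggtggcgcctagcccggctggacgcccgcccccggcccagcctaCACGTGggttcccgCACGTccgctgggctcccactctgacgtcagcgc
Hif1a (chr12:73907617-73907866, plus strand): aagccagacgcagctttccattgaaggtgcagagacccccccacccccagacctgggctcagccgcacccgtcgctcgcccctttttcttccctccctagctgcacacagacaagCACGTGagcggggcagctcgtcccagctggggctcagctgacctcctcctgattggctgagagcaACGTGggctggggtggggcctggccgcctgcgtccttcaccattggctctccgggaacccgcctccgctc
Egln3 (chr12:54203875-54204124, minus strand): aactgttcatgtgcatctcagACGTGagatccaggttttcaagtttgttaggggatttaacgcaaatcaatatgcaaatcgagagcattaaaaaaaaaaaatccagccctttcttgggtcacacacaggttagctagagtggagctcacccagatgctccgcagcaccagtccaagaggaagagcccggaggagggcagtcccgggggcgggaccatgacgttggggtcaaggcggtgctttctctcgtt
Pdk1 (chr2:71872974-71873223, plus strand): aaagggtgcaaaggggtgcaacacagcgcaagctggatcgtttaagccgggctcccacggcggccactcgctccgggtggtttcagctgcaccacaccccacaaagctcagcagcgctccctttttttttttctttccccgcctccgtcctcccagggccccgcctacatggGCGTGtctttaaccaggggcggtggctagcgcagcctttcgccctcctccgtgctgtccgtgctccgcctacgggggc
Tpi1 (chr6:124814159-124814408, minus strand): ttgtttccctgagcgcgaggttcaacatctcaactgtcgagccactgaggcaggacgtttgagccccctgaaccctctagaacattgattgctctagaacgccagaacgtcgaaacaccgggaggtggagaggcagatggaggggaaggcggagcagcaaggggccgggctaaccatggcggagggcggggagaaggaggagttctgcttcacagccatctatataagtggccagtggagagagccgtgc
The Hif1a window held CACGTG starting at 135 bases before the start site and a further ACGTG at 70 bases. Ldha had 2 copies of CACGTG, at 145 and 48 bases, and another ACGTG on the opposite strand. The window of Pdk1 shown held 1 GCGTG and that of Egln3 1 ACGTG, at 229 bases. In the windows not shown, that of Pdk1 held 0 matches and that of Ldha 1 GCGTG without CACGTG. No match lay in the Tpi1 window.

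RefSeq promoters were at hand for 29 of the 32 genes, in 42 windows. Bnip3l, Ero1l and Myc had no entry. ACGTG or GCGTG was present in at least 1 window of 25 of the 29 genes (86.2%). The same letters were present for 41.5% of all 27025 genes with a promoter, and for 63.8% of the 7629 genes that reached a mean of 5 CPM in the bulk libraries. Counted by window, the shares were 78.6% of the 42 windows, 38.6% of all 32851 windows and 58.0% of the 9698 windows of expressed genes. CACGTG was found for 5 of the 29 genes (17.2%), against 6.86% of all genes and 10.4% of expressed ones. The windows of the listed genes had a median GC content of 61.0%, those of expressed genes 60% and all windows 52.4%. Gpi1, Tpi1, Vhl and Mif were the 4 genes without ACGTG or GCGTG. These matches describe the letters in the windows and do not show binding.

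Single T cells were placed in gates by the UMIs of marker genes, each cell in the gate it met earliest in the order given here. Cycling cells (573) had Mki67 and Top2a, Tfr cells (49) had Foxp3, Cxcr5 and Pdcd1, and regulatory T (Treg) cells (1439) had Foxp3. Follicular helper T (Tfh) cells (590) had Cxcr5 and Pdcd1 without Foxp3, and stimulated cells (159) had Nr4a1, an early gene of T cell receptor signalling. Resting cells (1584) were gated on markers that include the homing gene Ccr7 and had no Pdcd1, Cxcr5, Mki67 or Top2a. T cells in none of these gates were not compared. Markers that no gate used were summed for each gate. The 6 Treg markers such as Il2ra and Ctla4 summed to 2088 CPM in Tfr and 2374 CPM in Treg cells, against 212 CPM in resting cells. In between lay 756 CPM in cycling, 732 CPM in stimulated and 500 CPM in Tfh cells. The 7 follicular markers such as Bcl6 and Il21 summed to 1387 CPM in Tfh and 1470 CPM in Tfr cells, with 935 CPM in Treg and 236 CPM in resting cells. The 6 cycling markers reached 2824 CPM in cycling cells and 60.8 CPM in resting cells, and the 7 stimulation markers 1368 CPM in stimulated, 903 CPM in Tfr, 667 CPM in Treg and 287 CPM in resting cells. The Treg, follicular and stimulation markers were thus not limited to the gates named for them. The rule for T cells removes cells with UMIs of B cell genes such as Cd79a, Cd79b and Ms4a1, which are therefore at 0 in every gate. The 8 B markers together summed to 269 CPM in cycling, 195 in stimulated, 393 in Tfh, 689 in Tfr, 695 in Treg and 225 in resting cells. Most of this was Ighm, at 257 CPM in cycling, 193 in stimulated, 339 in Tfh, 637 in Tfr, 680 in Treg and 220 in resting cells. Over the 6 gates, plasma cell markers summed to between 42.4 and 130 CPM, stromal markers to between 39.5 and 95.6 CPM, NK and CD8 markers to between 17.8 and 71.7 CPM and myeloid markers to between 4.45 and 21.6 CPM. Red cell and platelet markers summed to 1405 CPM in Treg cells and to between 3.38 and 7.10 CPM in the other gates. The part of this RNA in the results was not tested. Cells of the cycling gate were deeper than the rest, with a median of 18295 UMIs, against 5429 to 7826 in the other 5 gates.

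The core enzymes together took a larger share of RNA in every other gate than in resting cells. They made up 0.627% of all UMIs in cycling cells (exact binomial 95% interval 0.622 to 0.631), 0.359% in stimulated (0.348 to 0.370), 0.451% in Tfh (0.445 to 0.457), 0.441% in Tfr (0.421 to 0.462), 0.310% in Treg (0.306 to 0.314) and 0.176% in resting cells (0.173 to 0.178). The intervals of Tfh and Tfr cells overlapped, and those of the other gates did not. Per cell, this was 125 UMIs in cycling, 26.7 in stimulated, 35.5 in Tfh, 37.5 in Tfr, 18.8 in Treg and 11.5 in resting cells. After each cell was thinned to 3000 UMIs, the median number of core UMIs per cell was 16 in cycling, 8 in stimulated, 11 in Tfh, 11.5 in Tfr, 7 in Treg and 5 in resting cells. The quartiles were 11 and 22 core UMIs in cycling, 8 and 16 in Tfh, 5 and 11 in Treg and 3 and 7 in resting cells. The middle ranges of cycling and resting cells thus did not overlap, while the full ranges did, at 0 to 45 in cycling and 0 to 20 in resting cells. Thinning left out 3 cycling, 6 stimulated, 17 Tfh, 1 Tfr, 129 Treg and 29 resting cells with fewer UMIs.

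**Figure D1:**
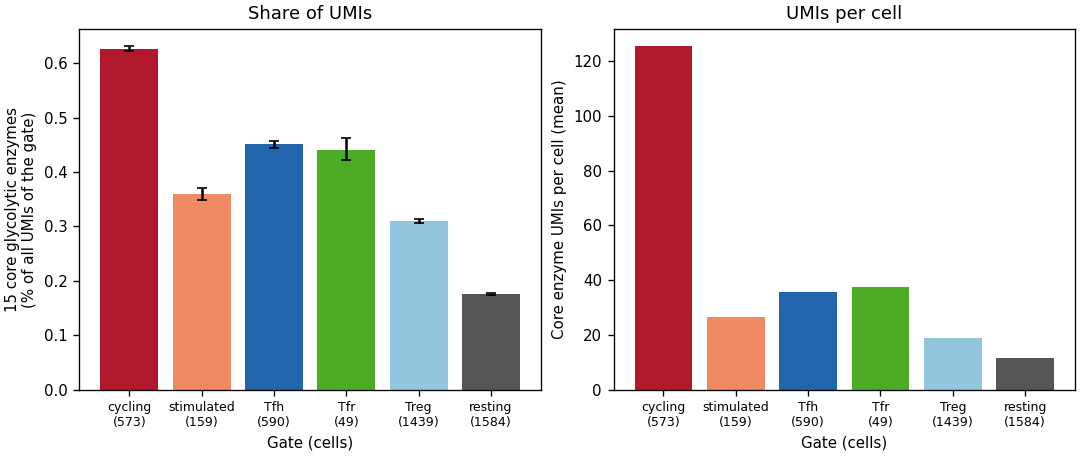
Bars give the 15 core glycolytic enzymes as a percentage of all UMIs of each gate (left, lines are exact binomial 95% intervals) and as mean UMIs per cell without thinning (right), with the number of cells under each gate. Cycling cells stand highest on both scales, at 0.627% and 125 UMIs, and resting cells lowest, at 0.176% and 11.5 UMIs.

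Ribosomal protein genes also differed between the gates, with the lowest share in cycling and the highest in resting cells, opposite to the core enzymes. They took 26.7% of UMIs in cycling, 33.0% in stimulated, 28.2% in Tfh, 28.3% in Tfr, 29.3% in Treg and 42.3% in resting cells. With ribosomal protein and mitochondrial genes left out of the totals, the core share was 0.900% in cycling, 0.573% in stimulated, 0.680% in Tfh, 0.661% in Tfr, 0.465% in Treg and 0.333% in resting cells, so the order of the gates was the same.

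Step by step, with full totals, resting cells had the lowest level of every core enzyme but Eno3, whose lowest level was in Tfh cells. For Eno1, Pfkm and Eno3 the interval of the lowest gate overlapped that of the next gate by level. With ribosomal and mitochondrial genes left out of the totals, Eno1 stood lower in Tfh and Treg than in resting cells. Pfkm then stood lower in cycling than in resting cells. The highest level was in cycling cells for 6 of the 15 enzymes, in Tfr cells for 4, in Tfh cells for 3 and in stimulated cells for 2. Only where cycling cells were highest did the interval of the top gate lie clear of the next gate by level. For each of the other enzymes these intervals overlapped. The top levels of Hk2, Aldoc and Eno3 in Tfr cells rested on 11, 7 and 6 UMIs. Hexokinase, which traps glucose in the cell, was represented by Hk1 at 47.3 CPM in cycling, 61.7 in stimulated, 54.0 in Tfh, 50.4 in Tfr, 44.8 in Treg and 34.3 in resting cells. The inducible Hk2 had 12.7 CPM in cycling (146 UMIs), 10.1 in stimulated (12 UMIs), 6.03 in Tfh (28 UMIs), 26.4 in Tfr (11 UMIs), 7.0 in Treg (61 UMIs) and 1.55 in resting cells (16 UMIs). Hk2 thus varied far more between gates than Hk1, though on few UMIs. Gpi1, which makes fructose phosphate, differed little, with its highest level, 304 CPM, in Tfh cells and its lowest, 204 CPM, in resting cells.

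Phosphofructokinase, the main control point of the pathway, has 3 subunit genes. Pfkp had 104 CPM in cycling, 90.5 in stimulated, 147 in Tfh, 115 in Tfr, 72.4 in Treg and 46.4 in resting cells. Its partner Pfkl had 42.4 CPM in cycling, 44.8 in stimulated, 57.9 in Tfh, 72.1 in Tfr, 30.5 in Treg and 23.6 in resting cells. Both were thus highest in a follicular gate, Pfkp in Tfh and Pfkl in Tfr cells, with intervals of the 2 gates that overlapped for each gene. The muscle subunit Pfkm stayed between 1.84 and 4.23 CPM. Aldolase then splits the sugar. Aldoa had 529 CPM in cycling, 403 in stimulated, 548 in Tfh, 526 in Tfr, 345 in Treg and 214 in resting cells, and cycling, Tfh and Tfr cells overlapped. Aldoc was scarce, at 2.53 CPM in cycling, 5.07 in stimulated, 14.2 in Tfh, 16.8 in Tfr, 8.26 in Treg and 0.677 in resting cells. Unlike Aldoa, it was low in cycling cells and high in the follicular gates.

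From the triose phosphates on, every enzyme but Eno3 had its highest level in cycling cells. Tpi1, which interconverts the triose phosphates, had 324 CPM in cycling, 162 in stimulated, 201 in Tfh, 168 in Tfr, 93.6 in Treg and 33.3 in resting cells. Gapdh, the dehydrogenase that follows it, had 2785 CPM in cycling, 1368 in stimulated, 1754 in Tfh, 1643 in Tfr, 1187 in Treg and 589 in resting cells. Pgk1, which makes ATP, had 456 CPM in cycling, 245 in stimulated, 292 in Tfh, 269 in Tfr, 191 in Treg and 112 in resting cells. For these 3 enzymes the gates stood in 1 order: cycling, Tfh, Tfr, stimulated, Treg, resting, and Tfh and Tfr cells overlapped each time. Pgam1, a mutase, had 304 CPM in cycling, 191 in stimulated, 197 in Tfh, 204 in Tfr, 112 in Treg and 63.6 in resting cells. Enolase Eno1 had 388 CPM in cycling, 232 in stimulated, 185 in Tfh, 202 in Tfr, 203 in Treg and 168 in resting cells, so that outside cycling cells its levels lay close together. Pkm, pyruvate kinase, had 981 CPM in cycling, 520 in stimulated, 742 in Tfh, 800 in Tfr, 535 in Treg and 261 in resting cells. Eno3, the muscle enolase, stayed between 1.72 and 14.4 CPM.

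**Figure D2:**
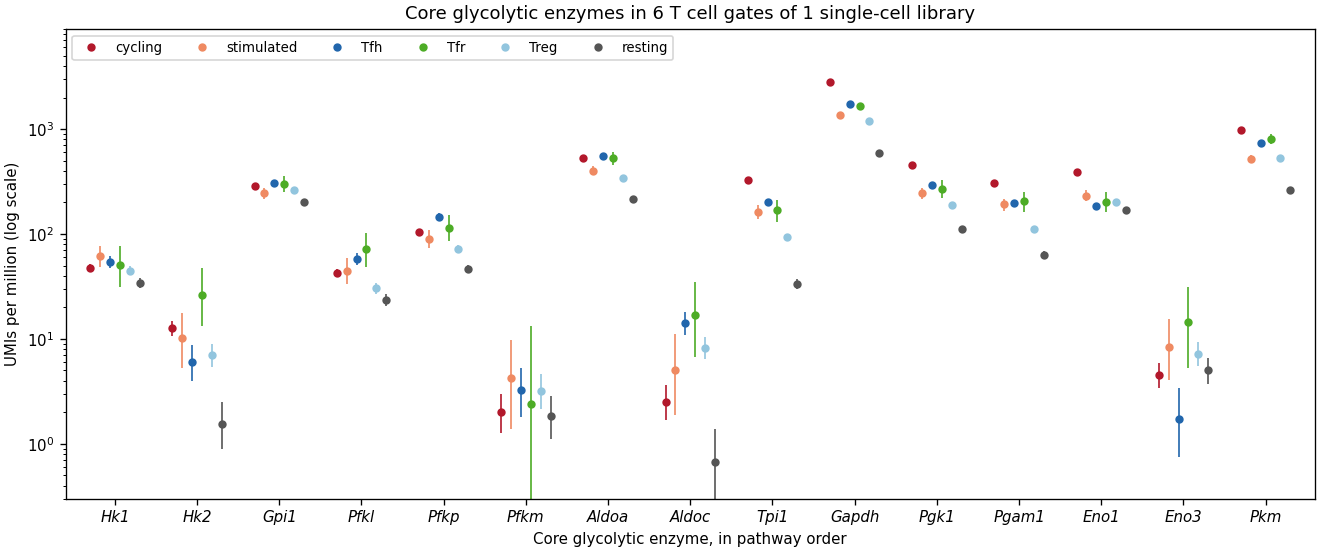
Points give CPM (log axis) of each core enzyme in pathway order for the 6 gates, and lines are exact Poisson 95% intervals, which the axis cuts at its lower end for Pfkm and Aldoc. Gapdh spans 589 to 2785 CPM, and the lowest point is the resting gate for all enzymes but Eno3.

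After pyruvate, the genes no longer moved together. Ldha, which makes lactate, had 975 CPM in cycling, 606 in stimulated, 501 in Tfh, 545 in Tfr, 437 in Treg and 303 in resting cells. Ldhb, whose subunit favours the reverse reaction, was lowest where Ldha was highest: 13.2 CPM in cycling, 32.1 in stimulated, 27.5 in Tfh, 28.8 in Tfr, 29.1 in Treg and 26.9 in resting cells. Pdk1, the kinase that shuts off pyruvate dehydrogenase, had 18.6 CPM in cycling, 50.7 in stimulated, 50.8 in Tfh, 38.4 in Tfr, 42.7 in Treg and 103 in resting cells. Resting cells thus stood above all other gates for Pdk1, alone among the 32 genes. Pdha1, the catalytic subunit that Pdk1 acts on, differed little, with 78.7 CPM in stimulated cells at the top and 63.9 CPM in resting cells at the bottom. The phosphofructokinase activator gene Pfkfb3 had 6.80 CPM in cycling, 8.46 in stimulated, 14.0 in Tfh, 16.8 in Tfr, 7.57 in Treg and 6.77 in resting cells. Its relative Pfkfb4 stayed between 1.05 and 3.66 CPM.

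Among the oxygen-sensing genes, Hif1a and Egln3 were highest in Tfh cells. Hif1a had 205 CPM in cycling, 282 in stimulated, 575 in Tfh, 464 in Tfr, 183 in Treg and 57.5 in resting cells, and no gates next to each other by level had overlapping intervals. Egln3, a HIF hydroxylase that is itself a HIF target, had 20.3 CPM in cycling, 11 in stimulated, 83.5 in Tfh, 38.4 in Tfr, 12.7 in Treg and 4.45 in resting cells. The hydroxylase Egln1 lay closer together, with 87.8 CPM in Tfh cells and 59.0 CPM in resting cells as its extremes. Vhl stayed between 5.38 CPM in Tfh and 9.75 CPM in Treg cells, and its intervals overlapped between all gates next to each other by level. The order of the gates for Hif1a was therefore not that of the core enzymes, whose highest share was in cycling cells.

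The 5 hypoxia targets had no common pattern. Bnip3l, a mitophagy receptor, had 81.7 CPM in cycling, 139 in stimulated, 149 in Tfh, 149 in Tfr, 156 in Treg and 119 in resting cells, and was lowest in cycling cells. P4ha1, a collagen prolyl hydroxylase, had 18.6 CPM in cycling, 27.9 in stimulated, 22.4 in Tfh, 33.6 in Tfr, 45.4 in Treg and 24.9 in resting cells. Higd1a, a mitochondrial protein, followed the enzymes, with 209 CPM in cycling, 137 in stimulated, 152 in Tfh, 185 in Tfr, 114 in Treg and 83 in resting cells. Ero1l, an oxidase of the endoplasmic reticulum, had 32.6 CPM in cycling, 20.3 in stimulated, 21.5 in Tfh, 31.2 in Tfr, 20.4 in Treg and 11.9 in resting cells. Bnip3, the partner of Bnip3l, stayed between 2.40 and 8.18 CPM.

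Mif, a cytokine and known HIF target, had 843 CPM in cycling, 552 in stimulated, 542 in Tfh, 639 in Tfr, 331 in Treg and 226 in resting cells. Myc had 16.8 CPM in cycling, 62.6 in stimulated, 14.4 in Tfh, 19.2 in Tfr, 25 in Treg and 20.4 in resting cells. Stimulated cells stood apart for Myc, and the 5 other gates lay between 14.4 and 25 CPM.

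**Figure D3:**
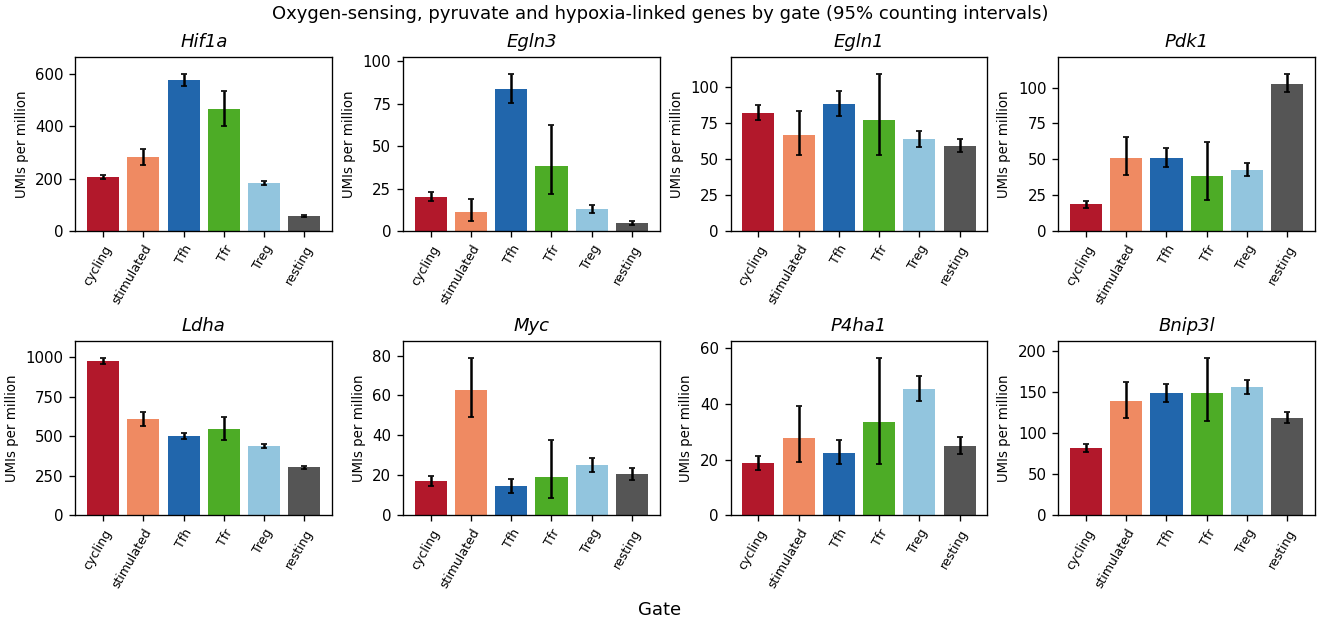
Bars give CPM in the 6 gates for 8 genes of oxygen sensing, pyruvate use, hypoxia and Myc, each panel on its own axis, and lines are exact Poisson 95% intervals. Hif1a reaches 575 and Egln3 83.5 CPM in Tfh cells, Pdk1 is highest in resting cells at 103 and Myc in stimulated cells at 62.6.

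Set against resting cells, genes were counted as higher or lower at a 1.5-fold ratio on the log2(CPM + 1) scale, among genes with a mean of at least 10 CPM over the 2 gates. In cycling cells 15 of the 24 listed genes that passed this filter were higher and 2 were lower, where 36.3% of all 6953 genes tested were higher and 12.7% lower. The median log2 ratio was 1.25 for the listed genes and 0.32 for all genes. Tpi1 was 9.73-fold higher (8.71 to 10.9), Pgam1 4.79-fold (4.41 to 5.22), Gapdh 4.73-fold (4.6 to 4.86), Egln3 4.56-fold (3.31 to 6.40) and Pgk1 4.06-fold (3.81 to 4.33). Of the 11 core enzymes tested 9 were higher, and Hk1 (1.38-fold, 1.20 to 1.58) and Gpi1 (1.39-fold, 1.32 to 1.47) stayed under the size. Pdk1 was 5.54-fold lower (4.78 to 6.45) and Ldhb 2.04-fold lower (1.67 to 2.51).

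In stimulated cells 15 of 23 listed genes were higher and 1, Pdk1, was lower (2.03-fold, 1.56 to 2.67), where 21.9% of all genes tested were higher and 3.09% lower. The medians were 0.90 for the listed genes and 0.27 for all genes. Hif1a was 4.90-fold higher (4.27 to 5.61), Tpi1 4.88-fold (4.07 to 5.84), Myc 3.07-fold (2.32 to 4.01) and Pgam1 3.01-fold (2.57 to 3.50). The core enzymes again had 9 of 11 higher, now with Hk1 (1.80-fold, 1.38 to 2.32) and without Eno1 (1.38-fold, 1.21 to 1.57).

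In Tfh cells 16 of 25 listed genes were higher and 1, Pdk1, was lower (2.02-fold, 1.76 to 2.34), where 27.8% of all genes tested were higher and 4.02% lower. The medians were 0.86 and 0.35 for listed and all genes. Egln3 was 18.8-fold higher (13.8 to 26.1), Hif1a 10.0-fold (9.15 to 11), Tpi1 6.03-fold (5.33 to 6.85), Pfkp 3.16-fold (2.80 to 3.56) and Pgam1 3.1-fold (2.80 to 3.43). Core enzymes were higher in 9 of 11 cases, and Eno1 was at 1.10-fold (1.01 to 1.20). Myc was 1.42-fold lower (1.07 to 1.89), under the size.

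In Treg cells 10 of 23 listed genes were higher and 1, Pdk1, was lower (2.41-fold, 2.14 to 2.72), where 20.8% of all genes tested were higher and 2.69% lower. The medians were 0.53 and 0.28. Hif1a was 3.18-fold higher (2.89 to 3.50), Tpi1 2.81-fold (2.48 to 3.20), Pkm 2.05-fold (1.96 to 2.15), Gapdh 2.01-fold (1.95 to 2.08) and P4ha1 1.83-fold (1.56 to 2.15). Of the core enzymes 7 of 11 were higher. The Treg gate held 1110 CPM of the red cell gene Hbb-bs, against 3.0 CPM in resting cells. Without the 2 cells that had at least 10 of its UMIs, the core share was 0.310%.

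These 4 comparisons share the resting cells and are not independent. In all 4 the listed genes had a higher median than all genes, and Pdk1 was lower. With ribosomal and mitochondrial genes left out of the totals, the median of all genes moved by -0.43 in cycling, -0.25 in stimulated, -0.32 in Tfh and -0.33 in Treg cells. Among all called genes, the share that was higher was then 42.6% in cycling cells (74.1% with full totals), 54.4% in stimulated (87.7%), 55.4% in Tfh (87.4%) and 52.9% in Treg cells (88.6%). Listed genes then counted 15 higher and 5 lower in cycling cells, where 20.6% of all genes were higher and 27.8% lower, and 14 and 1 in stimulated cells (12.3% and 10.3% of all genes). They counted 13 higher and 3 lower in Tfh cells (12.4% and 9.97%) and 5 and 1 in Treg cells (10.0% and 8.92%). Smaller totals raise every CPM, so more genes passed the filter, 8172 in cycling cells against 6953. Hk2 in cycling cells, Egln3 in stimulated and Treg cells and Aldoc in Tfh cells passed only then, through their level there. Vhl, called lower in Tfh cells, also passed only then, through its level in resting cells. The filter thus favoured these calls. Pfkl in cycling cells fell under the size (log2 ratio 0.44). Counts without ribosomal and mitochondrial genes, here and below, are thus descriptions. The medians of the listed genes were then 0.81, 0.59, 0.54 and 0.17, against -0.11, 0.02, 0.03 and -0.05 for all genes. No called gene changed direction. Among genes past the filter, the uncalled ones that did were Pdha1 in cycling cells, Egln1, Bnip3l and P4ha1 in stimulated cells, Eno1, Ldhb, Pdha1 and Bnip3l in Tfh cells, and Eno1, Ldhb, Pdha1, Egln1 and Myc in Treg cells.

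**Figure D4:**
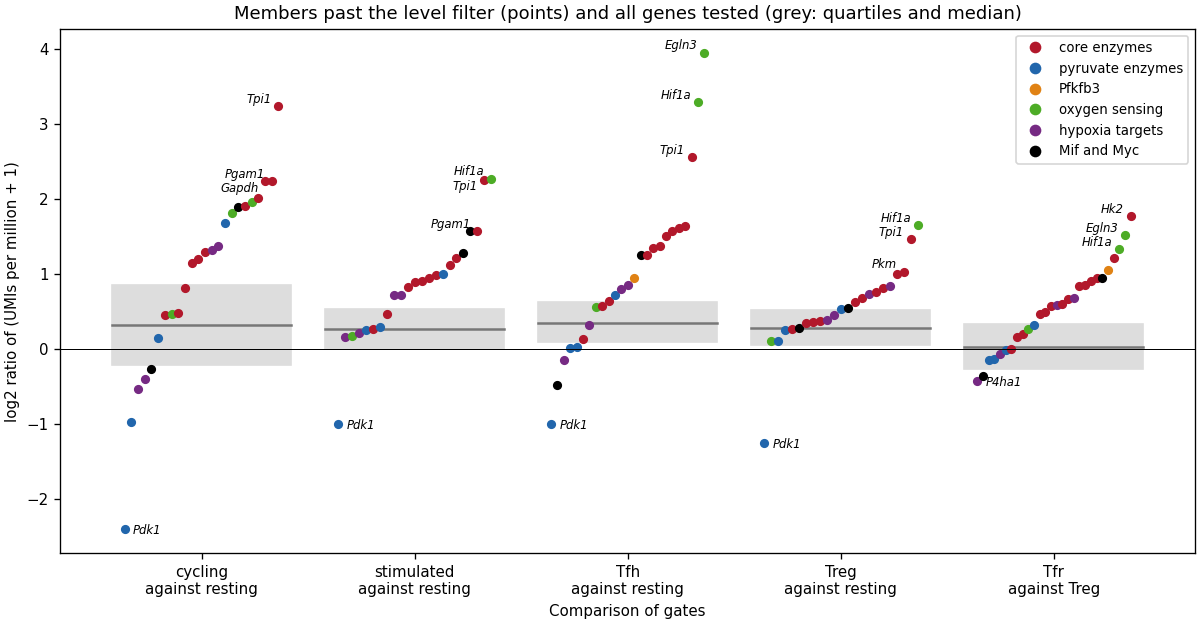
Points are the listed genes past the level filter, each at its log2 ratio of (CPM + 1) for the comparison named below, sorted from low to high and coloured by role. Grey boxes give the quartiles and the line the median of all genes tested. Pdk1 is the lowest point in each comparison with resting cells, and Egln3 in Tfh cells the highest, at 3.95.

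Some listed genes did not pass the filter. Pfkm, Pfkfb4, Vhl and Bnip3 passed in none of the 5 gate comparisons, and Hk2, Aldoc and Eno3 passed only for Tfr against Treg cells. For Hk2 the ratio to resting cells was 8.22-fold (4.89 to 14.8) in cycling and 4.52-fold (2.57 to 8.40) in Treg cells, on 16 UMIs in resting cells. Aldoc had 7 UMIs in resting cells and was 21.0-fold higher (9.63 to 54.2) in Tfh cells. Egln3 in cycling and Tfh cells and Pfkfb3 in Tfh cells passed only through their level there, being under 10 CPM in resting cells. Egln3 did not pass in stimulated or Treg cells, where it was 2.47-fold (1.22 to 4.65) and 2.86-fold (2.01 to 4.13) higher.

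Within the Foxp3+ cells, Tfr cells were set against Treg cells. Of 28 listed genes that passed the filter 14 were higher and 0 were lower, where 11.8% of all 7200 genes tested were higher and 11.7% lower. Of the 14, Hk2, Aldoc, Eno3 and Pfkfb3 passed the filter only through their level in Tfr cells, being under 10 CPM in Treg cells, so that their calls were favoured by the filter and the count is a description. Other RNA differed between these gates too. The stimulation markers summed to 903 CPM in Tfr and 667 CPM in Treg cells, the cycling markers to 279 and 146 CPM, and the median mitochondrial share of UMIs was 5.54% in Tfr and 3.91% in Treg cells. The part of these differences in the ratios was not tested. The median log2 ratio was 0.58 for the listed genes and 0.03 for all genes, and with ribosomal and mitochondrial genes left out it was 0.58 and 0.02, with 14 higher and 0 lower (13.6% and 13.8% of all genes). Hk2 was 3.78-fold higher (1.79 to 7.24), Egln3 3.02-fold (1.67 to 5.12), Hif1a 2.54-fold (2.17 to 2.95), Pfkl 2.36-fold (1.56 to 3.45), Mif 1.93-fold (1.70 to 2.19), Pgam1 1.82-fold (1.44 to 2.27) and Tpi1 1.80-fold (1.39 to 2.30). The core enzymes called higher were Hk2, Pfkl, Pfkp, Aldoa, Aldoc, Tpi1, Pgam1 and Eno3. Pyruvate genes stayed under the size, with Ldha at 1.25-fold (1.09 to 1.43), Pdk1 at 0.901-fold (0.510 to 1.48) and Ldhb at 0.990-fold (0.505 to 1.76). For 10 of the 14 genes the interval lay above 1. Those of Aldoc, Eno3, Pfkfb3 and Ero1l, with 6 to 13 UMIs in Tfr cells, did not.

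The Tfr gate held 49 cells and 416270 UMIs. With a wider rule, Foxp3 with either Cxcr5 or Pdcd1, it held 365 cells, and the count against the remaining 1123 Foxp3+ cells was 4 higher (Tpi1, Pkm, Hif1a, Egln3) and 0 lower, where 3.71% and 1.16% of all genes were higher and lower. The core share was then 0.390% (0.382 to 0.398) in the wide Tfr gate and 0.288% (0.284 to 0.292) in the remaining Treg cells. Hk2 rested on 11 UMIs in Tfr cells, and among the 23 Tfr cells with under 5% mitochondrial UMIs it had 0 UMIs.

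The cycling gate mixed Foxp3+ and Foxp3- cells, and the split by Foxp3 was chosen after seeing the data. The core enzymes took 0.603% of UMIs in 222 cycling Foxp3+ cells (0.595 to 0.610) and 0.642% in 351 cycling Foxp3- cells (0.636 to 0.648). Against non-cycling Treg cells, 10 of 24 listed genes were higher and 4 lower in cycling Foxp3+ cells, where 18.7% of all genes were higher and 18.7% lower. Tpi1 was 3.50-fold higher (3.21 to 3.81), Pgam1 2.51-fold (2.30 to 2.73), Mif 2.49-fold (2.37 to 2.62) and Ldha 2.28-fold (2.18 to 2.38). Pdk1 was 2.65-fold lower (2.05 to 3.46), Ldhb 2.07-fold (1.56 to 2.77), Bnip3l 2.03-fold (1.81 to 2.30) and P4ha1 1.66-fold (1.35 to 2.05). Hif1a was level, at 176 CPM in cycling Foxp3+ and 183 CPM in Treg cells (0.962-fold, 0.882 to 1.05). With ribosomal and mitochondrial genes left out, 9 were higher and 4 lower, where 15.6% and 24.4% of all genes were, and the share of higher genes among all called genes was 39.0%, against 50% with full totals.

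Against resting cells, cycling Foxp3- cells had 15 of 24 listed genes higher and 3 lower, where 35.8% of all genes were higher and 12.8% lower. The lower genes were Pdk1 (5.11-fold, 4.28 to 6.14), Ldhb (2.14-fold, 1.68 to 2.75) and P4ha1 (1.89-fold, 1.49 to 2.43). Hif1a was 3.91-fold higher (3.55 to 4.30). Without ribosomal and mitochondrial genes 15 were higher and 5 lower, where 20.6% and 27.5% of all genes were, and the share of higher genes among all called genes was 42.8%, against 73.6%.

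Sostdc1 itself marks part of the Tfh gate. Core enzymes took 0.50% of UMIs (0.484 to 0.516) in the 97 Tfh cells with a Sostdc1 UMI and 0.441% (0.434 to 0.448) in the 493 without. Of 26 listed genes 1 was higher, Hk1 at 75.6 CPM in cells with and 49.7 CPM in cells without Sostdc1 (1.52-fold, 1.12 to 2.05), and 0 were lower, where 5.02% of all genes were higher and 5.91% lower. Hif1a had 728 CPM in cells with and 544 CPM in cells without Sostdc1 (1.34-fold, 1.22 to 1.47), Tpi1 249 and 191 CPM (1.30-fold, 1.10 to 1.53), and Mif 675 and 515 CPM (1.31-fold, 1.19 to 1.44). Egln3 had 82.0 and 83.8 CPM (0.978-fold, 0.736 to 1.28). The medians were 0.06 for the listed genes and 0.00 for all genes. With ribosomal and mitochondrial genes left out 2 were higher and 0 lower, where 6.53% and 7.99% of all genes were.

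The same comparisons were counted at a stricter size of 2-fold. In cycling cells 14 listed genes were higher and 1, Pdk1, was lower than in resting cells, where 20.4% of all genes were higher and 5.24% lower. Stimulated cells had 7 higher (Tpi1, Gapdh, Pgk1, Pgam1, Hif1a, Mif, Myc) and 1 lower, again Pdk1, where 6.63% and 0.779% of all genes were. Tfh cells had 11 higher and 1, Pdk1, lower, where 9.34% and 1.67% of all genes were. Treg cells had 4 higher (Tpi1, Gapdh, Pkm, Hif1a) and 1 lower, Pdk1, where 8.01% and 0.780% of all genes were. For Tfr against Treg cells 5 were higher (Hk2, Pfkl, Pfkfb3, Hif1a, Egln3) and 0 lower, where 3.68% and 4.10% of all genes were. Of these, Hk2 and Pfkfb3 passed the filter only through their level in Tfr cells, so their calls were favoured by it. The wide Tfr gate had 0 listed genes past 2-fold in either direction (0.941% and 0.221% of all genes). Cycling Foxp3+ cells had 6 higher (Tpi1, Gapdh, Pgk1, Pgam1, Ldha, Mif) and 2 lower (Pdk1, Bnip3l) than Treg cells, where 8.84% and 6.92% of all genes were. Cycling Foxp3- cells had 14 higher and 2 lower (Pdk1, Ldhb) than resting cells, where 19.9% and 5.38% of all genes were. Tfh cells with Sostdc1 had 0 in either direction (1.15% and 1.13% of all genes).

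In the bulk Tfr libraries, few of the listed genes differed between the labels by the 2-fold size used there. Of the 30 with a mean of at least 5 CPM, 0 were higher and 1, Mif, was lower in the KO-labelled library, where 2.35% of all 9865 genes tested were higher and 8.42% lower (2.24% and 8.58% of the 9566 genes off the X and Y chromosomes). Mif had 46.3 CPM in the KO-labelled library and 121 CPM in the WT-labelled library (2.62-fold lower, 2.45 to 2.81). Bulk RNA cannot tell fewer cells of a type from less RNA per cell. The median log2 ratio was 0.16 for the listed genes and -0.03 for all genes, and 20 of the 30 lay above 0. With trimmed-mean scaling, which moved the median of all genes by 0.15, these were 0.31, 0.12 and 23 of 30. Pgam1 and Pfkm changed sign under it, as did Myc and the unfiltered Pfkfb4.

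The core enzymes took 0.531% of counts in the KO-labelled library and 0.429% in the WT-labelled library. Gapdh had 440 CPM in the KO-labelled library and 274 CPM in the WT-labelled library (1.61-fold, 1.55 to 1.66), and the X-linked Pgk1 had 376 and 246 CPM in the KO-labelled and WT-labelled libraries (1.53-fold, 1.47 to 1.58). Aldoa had 662 CPM in the KO-labelled library and 487 CPM in the WT-labelled one (1.36-fold, 1.32 to 1.39), and Pkm 1856 and 1411 CPM (1.31-fold, 1.30 to 1.33). These enzymes stood on the side of the KO-labelled library. Of the 15 core enzymes 11 lay above 0 and 4 below, among those below Pfkl, with 70.0 CPM in the KO-labelled library and 121 CPM in the WT-labelled one (1.73-fold lower, 1.63 to 1.84), and Hk1, with 165 and 237 CPM (1.44-fold lower, 1.38 to 1.5). Hk2 had 126 CPM in the KO-labelled library and 95 CPM in the WT-labelled one (1.32-fold, 1.25 to 1.40). Eno1 (1.08-fold, 1.05 to 1.11) and Tpi1 (1.09-fold, 1.04 to 1.14) were nearly level.

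Ldha had 1112 CPM in the KO-labelled library and 747 CPM in the WT-labelled one (1.49-fold, 1.46 to 1.52). Pdk1 went the other way, with 20.2 and 29.9 CPM in the KO-labelled and WT-labelled libraries (1.48-fold lower, 1.31 to 1.67). Hif1a had 907 CPM in the KO-labelled library and 809 CPM in the WT-labelled one (1.12-fold, 1.10 to 1.14), and Egln3 had 86.0 and 81.3 CPM (1.06-fold, 0.991 to 1.13). Egln1 was 1.37-fold lower (1.26 to 1.48) and Bnip3l 1.30-fold lower (1.23 to 1.38) in the KO-labelled library. Myc had 299.8 CPM in the KO-labelled library and 308 CPM in the WT-labelled one (0.975-fold, 0.942 to 1.01). Of the 15 listed genes not named in these values, Pgam1, Pfkm, Vhl, Pfkfb4 and Bnip3 had folds under 1, the lowest 0.644 (0.481 to 0.863) for Bnip3, which was under the filter. The other 10 lay between 1.11-fold (Ero1l, 1.04 to 1.18) and 1.36-fold (Higd1a, 1.18 to 1.57). At a size of 1.5-fold, 2 genes were higher (Gapdh, Pgk1) and 2 lower (Mif, Pfkl), where 9.14% of all genes were higher and 18.6% lower.

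**Figure D5:**
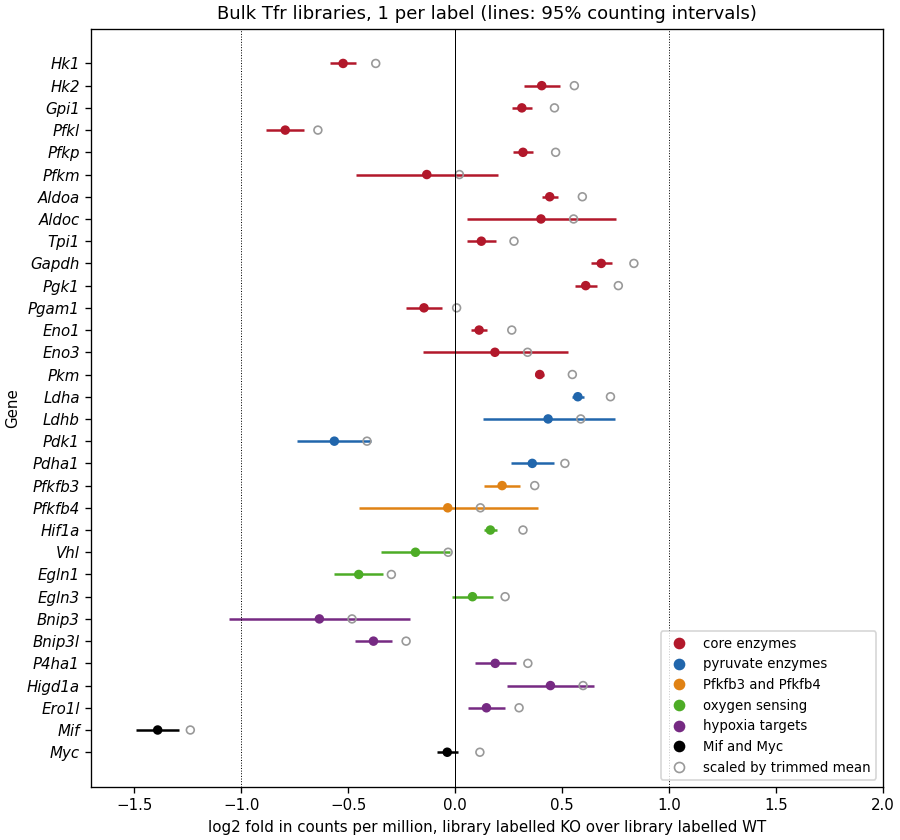
Filled points give the log2 fold in CPM of each listed gene, the KO-labelled library over the WT-labelled library, with 95% counting intervals as lines, and open circles give the same with trimmed-mean scaling. Dotted lines mark 2-fold. Mif, at 2.62-fold lower, is the only point beyond them.

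Markers of other cells differed between the bulk libraries too, and their part in these values was not tested. The 8 B cell markers summed to 504 CPM in the KO-labelled library and 1128 CPM in the WT-labelled one, with 0 of them at 0 in either. The 8 myeloid markers summed to 62.9 and 27.2 CPM, the 6 NK and CD8 markers to 24.9 and 13.1 CPM, the 5 plasma cell markers to 551 and 394 CPM, and the 5 stromal markers to 71.5 and 56.5 CPM, in the KO-labelled and WT-labelled libraries. Red cell and platelet markers summed to 0.576 CPM in the KO-labelled library, where Hbb-bs and Hba-a1 were at 0, and 3.04 CPM in the WT-labelled one. Resting markers summed to 275 CPM in the KO-labelled library and 509 CPM in the WT-labelled one. The other T cell marker sums were higher in the KO-labelled library. Treg markers summed to 8791 CPM there and 6102 CPM in the WT-labelled one, and follicular markers to 2506 and 1548 CPM. Stimulation markers summed to 4042 and 3463 CPM, and cycling markers to 252 and 206 CPM. Tnfrsf18, the GITR gene and a Treg marker, had 276 and 165 CPM, whereas Foxp3 was higher in the WT-labelled library. The part of these differences was not tested.

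Genes around the pathway were counted in 8 further lists. Their counts are read beside the shares of all genes tested that were higher than in resting cells, 36.3% in cycling, 21.9% in stimulated, 27.8% in Tfh and 20.8% in Treg cells, and with few genes a list they are descriptions. For sugar and lactate transport, the lactate carrier Slc16a1 was 2.72-fold higher (2.11 to 3.54) in cycling than in resting cells, and the lactate exporter Slc16a3 22.3-fold higher (9.96 to 54.9) in stimulated than in resting cells. Glucose carriers differed by gate: Slc2a3 had 38.0 CPM in Treg and 10.3 CPM in resting cells (3.70-fold, 2.97 to 4.65). Of the 5 transport genes 2 of 3 tested were higher in cycling, 3 of 4 in stimulated, 2 of 2 in Tfh and 2 of 2 in Treg cells. Among the genes counted as higher in the further lists, some were under 10 CPM in resting cells. These included Slc16a1 (7.93 CPM), Slc16a3 (0.871), Pdk3 (8.51), G6pdx (8.61) and Bhlhe40 (2.42). They passed the filter only through the other gate, so that their calls were favoured by the filter. In the pentose phosphate pathway, which branches off glucose phosphate, 5 of 7 genes were higher in cycling cells, led by Tkt with 259 CPM in cycling and 84.2 CPM in resting cells (3.08-fold, 2.85 to 3.32). The same pathway had 1 of 7 higher in stimulated, 2 of 7 in Tfh and 2 of 6 in Treg cells, near the shares of all genes. Of the pyruvate dehydrogenase genes tested, 3 of 5 were higher in cycling cells, and 1 of 5 in each of stimulated, Tfh and Treg cells. Among them, Pdk3 was 3.56-fold higher (2.81 to 4.55) in cycling cells, 2.88-fold (2.16 to 3.85) in Tfh and 1.63-fold (1.23 to 2.17) in Treg cells than in resting cells. Pdk3 and Pdk1, 2 kinases of the same enzyme, thus lay on opposite sides of resting cells in these gates. With 8.51 CPM in resting cells, Pdk3 could pass the filter only where it was higher. A lower Pdk3 could not have been called, so this contrast is a description.

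For the HIF pathway, Eloc, a partner of Vhl, was 2.45-fold higher (2.27 to 2.65) in cycling than in resting cells, and Hif1an, another HIF hydroxylase, 1.63-fold lower (1.31 to 2.02). The list had 3 of 7 tested genes higher and 1 lower in cycling cells (36.3% and 12.7% of all genes), and 1 of 7 higher in stimulated (21.9%), 1 of 7 in Tfh (27.8%) and 2 of 7 in Treg cells (20.8%), so that its counts lay near or under the shares of all genes. Of the other hypoxia targets, 4 of 8 were higher in cycling (36.3% of all genes), 5 of 8 in stimulated (21.9%), 4 of 7 in Tfh (27.8%) and 5 of 7 in Treg cells (20.8%). This list shares Slc2a1 with the transport list, Pdk3 with the pyruvate dehydrogenase list and Egln2 with the HIF list. Slc2a1 and Pdk3 were higher in cycling, Tfh and Treg cells and are counted in both of their lists. Bhlhe40, a repressor induced by hypoxia and by T cell activation, was 14.0-fold higher (9.33 to 21.9) in cycling and 21.0-fold higher (13.0 to 34.9) in stimulated cells, and the stress gene Ddit4 1.98-fold higher (1.76 to 2.22) in Treg cells. In the Myc network, 2 of 8 tested genes were higher and 2, Mnt and Mga, lower in cycling cells (36.3% and 12.7% of all genes). Higher were 2 of 8 in stimulated (21.9%), 3 of 8 in Tfh (27.8%) and 3 of 8 in Treg cells (20.8%). Odc1, a polyamine enzyme and known Myc target, was 4.95-fold higher (4.53 to 5.42) in cycling, 3.61-fold (3.09 to 4.21) in stimulated, 3.99-fold (3.60 to 4.43) in Tfh and 5.70-fold (5.21 to 6.25) in Treg cells than in resting cells. With full totals Myc itself passed the size among these 4 gates in stimulated cells only. With ribosomal and mitochondrial genes left out, Myc was also past the size downward in cycling (log2 ratio -0.66) and Tfh cells (-0.80). For Tfr against Treg cells, Fam162a, from the list of other hypoxia targets, was 2.02-fold higher (1.52 to 2.65), at 139 CPM in Tfr and 68.8 CPM in Treg cells.

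In the bulk libraries, the genes around the pathway that passed 2-fold were lower in the KO-labelled library, the direction that 8.42% of all genes took, against 2.35% higher. By list, these were 1 of 4 transport genes tested, 1 of 2 other isozymes, 1 of 7 pentose phosphate genes, 2 of 8 HIF pathway genes, 2 of 11 other hypoxia targets and 1 of 8 Myc network genes, with Egln2 in both the HIF and the hypoxia list. Ddit4 had 33.2 CPM in the KO-labelled library and 216 CPM in the WT-labelled one (6.52-fold lower, 6.07 to 7.01), and Slc16a3 had 64.5 and 232 CPM (3.60-fold lower, 3.40 to 3.8). The others were the enolase Eno2 (2.62-fold lower, 2.30 to 3.0), Pgls of the pentose phosphate pathway (2.26-fold, 2.00 to 2.56), the Vhl partner Elob (2.86-fold, 2.61 to 3.13), the hydroxylase Egln2 (2.78-fold, 2.58 to 2.99) and the Myc antagonist Mxd4 (2.5-fold, 2.28 to 2.74). Elob had 26.6 CPM in the KO-labelled library and 76.0 CPM in the WT-labelled one, and Egln2 40.3 and 112 CPM. Of the 8 lists, pyruvate dehydrogenase (7 genes tested) and fructose bisphosphate control (2 tested) had 0 past the size.

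Some of these counts can include reads of neighbours. In RefSeq Pfkp overlaps Pitrm1, Pfkm overlaps Senp1, Tpi1 overlaps Spsb2, Eno3 overlaps Pfn1 and Pdha1 overlaps Map3k15, Bnip3 overlaps a pseudogene, and the strand setting of the bulk counts is not stated in the sources used here. Glycolytic enzymes such as Gapdh, Pgk1, Ldha and Aldoa have many processed pseudogenes that can share their reads, so their counts are uncertain to that degree. The single-cell matrix holds a further ID named Aldoa, with 0 UMIs in T cells.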

How the data were processed

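The deposited bulk table held raw counts per gene for 2 libraries. The authors' columns of scaled values (CPM), ratio, log2 ratio and p-value were deposited beside the counts and were not used, because their test rested on 1 library per group. RNA was extracted with Trizol, per the labels' protocols. The submitters' processing notes name TopHat, Cufflinks, Bowtie2, Cell Ranger 2.1.0 and Seurat 2. The deposited single-cell matrix held UMI counts and named Cell Ranger 3.1.0, per the file headers. The column of the library named WT carries a number that the sample's title lacks.

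Counts were divided by library or gate totals to CPM. Ratios were taken on the log2(CPM + 1) scale, with a size of 2-fold and a mean of at least 5 CPM in bulk, and 1.5-fold and 10 CPM between gates. Fold intervals were exact conditional binomial, levels exact Poisson and shares exact binomial (Clopper-Pearson) at 95%, for counting error only. Bulk reads carry no molecular identifiers and are not independent molecules. A count of 0 allows up to 3 counts. No edgeR or other count test was run, since each group had 1 library. edgeR 4.0.16 (R 4.3.3) gave trimmed-mean factors only.

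Of 15002 barcodes (median 5673 UMIs, range 500 to 78924), cells below 500 genes (835) or at or above 10% mitochondrial UMIs (977) were removed, leaving 13190. Scrublet in scanpy 1.11.5 marked 0 doublets at its own threshold and so did not work. The 10% of cells with the highest scores (1319) and 160 more cells that held 3 or more UMIs each of B cell and T cell genes were removed, leaving 11711. T cells (8868) had a UMI of Cd3d, Cd3e or Cd3g and none of a list of other cells' genes that includes Cd79a, Cd79b, Ms4a1, Lyz2 and Ncr1. Some marker genes of the gates are not reported here. Gates did not use clusters. Python 3.11.15 with scipy 1.17.1 was used.

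The 32 genes and all lists were chosen with earlier results of these data known. Of the genes in the 8 further lists, at most 2 per list and direction were named, those with the largest ratio past the size. The alternatives were the doublet, mitochondrial, gate, level and size settings, thinning, equal weight per cell, and the scaling. The gates split by Foxp3 and by Sostdc1, the wide Tfr gate, the Treg gate without red cell RNA and the core share without ribosomal genes were added after seeing the data.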

Additional observations from a re-analysis of the deposited data

How the results depend on the processing

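Of 142 recomputed counts of genes past the size, 112 stayed within 1.5 times the count reported, and no called gene changed direction except Hk2 in Tfr against Treg cells, at a log2 ratio of -2.93 with mitochondrial UMIs under 5%, where 23 Tfr cells held 0 Hk2 UMIs. At 1.5-fold, the bulk counts were 2 higher and 2 lower. At 2-fold, the gates gave 1 lower in cycling, 7 higher in stimulated, 4 higher in Treg, 5 higher in Tfr against Treg, 6 higher and 2 lower in cycling Foxp3+ cells, and 0 higher in Tfh cells with Sostdc1. With a mean of at least 50 CPM, cycling cells had 1 lower, Tfr against Treg 8 higher, and cycling Foxp3+ and Foxp3- cells 1 lower each. With ribosomal and mitochondrial genes left out, cycling cells had 5 lower, Tfh 3 lower, Treg 5 higher, cycling Foxp3- cells 5 lower, and Tfh cells with Sostdc1 2 higher.

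The split of Tfh cells by Sostdc1 moved most often: 0 higher without doublet removal and with each cell weighted equally, 2 higher and 1 lower both after thinning to 3000 UMIs and with gates on at least 2 UMIs, and 6 higher and 2 lower with mitochondrial UMIs under 5%. With each cell weighted equally, Tfh had 2 lower and Tfr against Treg 1 lower, thinning gave 2 lower for Tfr against Treg, and gates on at least 2 UMIs gave 4 lower in cycling cells. Tfr against Treg cells was not run with that gate, which left 2 Tfr cells.

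The core share kept resting cells lowest and cycling cells highest in every setting run. It was 0.621% in cycling, 0.440% in Tfh and 0.304% in Treg cells without doublet removal. With each cell weighted equally it was 0.567% in cycling, 0.293% in stimulated, 0.415% in Tfh, 0.282% in Treg and 0.172% in resting cells. After thinning it was 0.566%, 0.305%, 0.411%, 0.414%, 0.287% and 0.171% in cycling, stimulated, Tfh, Tfr, Treg and resting cells. With mitochondrial UMIs under 5% it was 0.636% in cycling, 0.387% in stimulated, 0.510% in Tfh and 0.334% in Treg cells. Gates on at least 2 UMIs gave 0.640% in cycling, 0.329% in stimulated, 0.522% in Tfh, 0.339% in Treg and 0.172% in resting cells. Without ribosomal and mitochondrial genes it was 0.900%, 0.573%, 0.680%, 0.661%, 0.465% and 0.333% in cycling, stimulated, Tfh, Tfr, Treg and resting cells. The cause of these moves was not tested.

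No paired analysis was possible because each group used here had 1 library and the numbered replicates belong to samples not analysed here. Depth limits the Tfr gate most, since 416270 UMIs over 49 cells leave the intervals of 4 of its 14 called genes across 1.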
